A study of Mus musculus and Rattus norvegicus with 21 samples.

Results

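Binding of the transcription factors (TFs) GLIS3 and NKX2.1 was compared in the thyroid follicular cell line PCCl3, of rat origin, by chromatin immunoprecipitation followed by sequencing (ChIP-seq). All peaks of both deposited lists were taken, 46004 for GLIS3 and 47390 for NKX2.1, which is 93394 of the 201064 TF peaks in the series and 2 of its 21 samples. Each peak was 300 bp wide and placed on the rat assembly rn6. There was 1 library for each TF and no replicate, so every comparison here is a description of these libraries. The intervals given are 95% intervals that cover the counting of peaks only.

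GLIS3 was not the endogenous protein. By the study's methods, the cells carried a lentiviral Glis3 with an HA tag under a doxycycline-inducible promoter, were treated with doxycycline for a day, and the ChIP used an antibody against the tag. NKX2.1 was the endogenous protein and was precipitated with its own antibody. Whether the cells of the NKX2.1 ChIP carried or had induced the Glis3 transgene is not stated in the sources read here. The GLIS3 library shared an input (sheared chromatin without immunoprecipitation) with the FOXE1 library, and the NKX2.1 library had another input. TF, antibody and input therefore differed together between the lists and cannot be told apart. The number of reads behind either list is unknown, and the lists hold no peak height or score, so a weak and a strong peak count alike. Peak lists hold no expression, and the cell type was not checked against marker genes.

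GLIS3 is a Krüppel-like zinc finger protein that can activate or repress transcription and is needed for the output of thyroid hormone (TH) as well as for pancreatic beta cells. NKX2.1, also called TTF1, is a homeodomain protein required to form the thyroid and to express thyroglobulin, thyroperoxidase and other parts of the TH pathway. FOXE1, or TTF2, is the forkhead protein of the same group of thyroid TFs and served here as a further list against which GLIS3 and NKX2.1 peaks were read. Its list held 9448 peaks. TFs can bind next to each other in enhancers, and several enhancers can lie in one neighbourhood of a gene, so the lists were compared at the scale of a peak, of a run of peaks and of a chromosome. No gene names are given, since the peaks lie on rn6 and no rn6 annotation was used here.

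About 1 in 5 peaks was shared. In the GLIS3 list 9610 peaks (20.9%, 20.5 to 21.3%) overlapped an NKX2.1 peak by at least 1 bp, and in the NKX2.1 list 9643 peaks (20.3%, 19.99 to 20.7%) overlapped a GLIS3 peak. The other 36394 GLIS3 peaks (79.1%) and 37747 NKX2.1 peaks (79.7%) were single, which means without an overlapping peak of the other list. The lists hold no signal, so a single peak does not show that the other TF was absent. The study instead scored merged regions by the fragments that overlapped them, a measure that these lists do not allow. Overlap was almost always between 1 peak and 1 peak: of 9649 overlapping pairs, 39 GLIS3 peaks touched 2 or more NKX2.1 peaks and 6 NKX2.1 peaks touched 2 or more GLIS3 peaks. Merging all peaks within 50 bp gave 83176 collapsed regions, of which 9960 (11.97%) held both TFs, 36024 (43.3%) GLIS3 alone and 37192 (44.7%) NKX2.1 alone. Of the regions with both, 9812 held exactly 1 peak of each.

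At longer range the lists were not symmetric. A GLIS3 peak was seldom far from NKX2.1: 28.2% of GLIS3 midpoints had an NKX2.1 midpoint closer than 1 kb, 45.5% closer than 5 kb, 65.9% closer than 12500 bp and 98.0% closer than 100 kb. The reverse shares were 27.4%, 40.7%, 55.5% and 89.4% of NKX2.1 midpoints. GLIS3 peaks with no NKX2.1 midpoint within 100 kb numbered 921 (2.002%, 1.88 to 2.13%), against 5032 (10.6%, 10.3 to 10.9%) NKX2.1 peaks with no GLIS3 midpoint at that distance. Among single peaks, the nearest peak of the other TF was a median of 9981 bp away from GLIS3 peaks (quartiles 3581 and 22406 bp) and 16034 bp from NKX2.1 peaks (quartiles 4804 and 47238 bp). The shares were thus similar for overlap, and NKX2.1 peaks far from any GLIS3 peak were the more numerous.

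FOXE1 was read next, because it had no part in calling a peak shared or single. FOXE1 overlapped 2050 of 9610 shared GLIS3 peaks (21.3%, 20.5 to 22.2%) and 2001 of 36394 single GLIS3 peaks (5.50%, 5.27 to 5.74%), which is a 3.88-fold higher share (3.66 to 4.11). For NKX2.1 the shares were 21.1% of shared peaks (20.3 to 21.9%) and 4.44% of single peaks (4.23 to 4.65%), a 4.76-fold higher share (4.48 to 5.06). Single GLIS3 peaks overlapped FOXE1 1.24-fold as often as single NKX2.1 peaks (1.16 to 1.32), a far smaller gap than that between shared and single peaks. GLIS3 and FOXE1 also had an input in common, and a shared NKX2.1 peak is one that overlaps a GLIS3 peak, so that input bears on both comparisons. Its part in them was not tested.

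**Figure D1:**
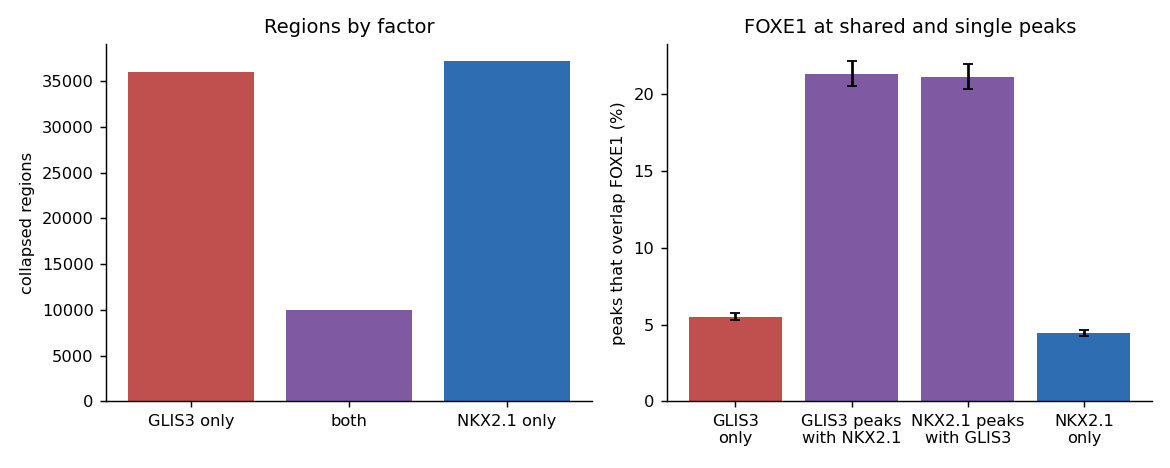
Left, number of collapsed regions (peaks merged within 50 bp) that held GLIS3 only, both TFs or NKX2.1 only. Right, percent of GLIS3 or NKX2.1 peaks that overlapped a FOXE1 peak, with 95% Wilson intervals as error bars. Both bars of shared peaks stand at about 21%, and the bars of single peaks at 5.50% for GLIS3 and 4.44% for NKX2.1.

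Counted from FOXE1, over the same overlaps, 2036 of its 9448 peaks overlapped both TFs, 2014 GLIS3 only, 1655 NKX2.1 only and 3743 neither. GLIS3 peaks with FOXE1 also had NKX2.1 in 50.6% of cases (49.1 to 52.1%, n = 4051), against 18.0% (17.7 to 18.4%, n = 41953) of GLIS3 peaks without FOXE1. NKX2.1 peaks with FOXE1 also had GLIS3 in 54.9% (53.3 to 56.5%, n = 3711), against 17.4% (17.1 to 17.8%, n = 43679) of those without. FOXE1 did not go along with a tighter arrangement: shared GLIS3 peaks lay a median of 53 bp from their NKX2.1 peak with FOXE1 (51 to 57) and 50 bp without (49 to 52).

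The midpoints of shared peaks lay close together. Over the 9604 pairs in which each peak was the other's nearest, the median distance between the GLIS3 and the NKX2.1 midpoint was 51 bp (50 to 52), with quartiles of 22 and 105 bp. Of these pairs, 10.9% were under 10 bp apart, 48.9% (47.9 to 49.9%) under 50 bp and 73.2% under 100 bp, and 46 had the same midpoint. Only 9.12% were 200 to 299 bp apart, the widest spacing at which 300 bp peaks can overlap. The NKX2.1 midpoint lay at the higher coordinate in 4819 pairs and at the lower in 4739 (50.4% higher, 49.4 to 51.4%). Sites can lie in either direction on the assembly, so this split cannot show whether the TFs keep a fixed order. Strand and motif orientation were not examined, since no rn6 sequence was used here.

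GLIS3 and NKX2.1 midpoints were somewhat closer than either was to FOXE1. The median was 62.5 bp for GLIS3 and FOXE1 (59 to 65, n = 4048) and 59 bp for NKX2.1 and FOXE1 (57 to 61, n = 3689), with 43.1% and 42.9% of pairs under 50 bp. In mouse thyroid glands, NKX2.1 and PAX8, the paired-box TF of the same cells, lay a median of 36 bp apart (36 to 37, n = 23683), and 62.5% of these pairs were under 50 bp. The mouse lists came from whole glands of another species, and the thresholds behind the deposited lists could not be checked, so this value is only set beside those of PCCl3 cells. The labels call those mice wild-type on a low iodide diet, while the study's methods describe Glis3-EGFP mice.

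The distance profile showed how far the excess of NKX2.1 near GLIS3 reached. Within 100 bp of a GLIS3 midpoint there were 0.764 NKX2.1 midpoints per kb, 31.0 times the level of 0.0246 per kb found 500 kb to 1 Mb away. The density was 7.52 times that level at 100 to 200 bp, 4.06 times at 200 to 300 bp, 3.55 times at 300 to 500 bp and 2.85 times at 500 bp to 1 kb. It then fell to 1.76 times at 1 to 2 kb and 1.33 times at 2 to 5 kb. It stood at 1.48 times at 5 to 10 kb and declined slowly to 1.27 times at 50 to 100 kb. The excess was thus sharpest within a peak's width and fell off further up to 2 kb. A shallow part reached 100 kb and beyond.

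Single peaks kept part of this neighbourhood. Around GLIS3 peaks without an overlapping NKX2.1 peak, NKX2.1 midpoints at 300 to 500 bp were 3.40 times as dense as at 500 kb to 1 Mb. Around NKX2.1 peaks without GLIS3, GLIS3 midpoints at that distance were 4.18 times as dense as far away. A share of the single peaks therefore lay just beyond the 300 bp at which peaks touch, and 9.29% of single GLIS3 peaks and 8.81% of single NKX2.1 peaks had the other TF within 1 kb.

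Within a list, the spacing differed between the TFs at short range. The closest GLIS3 neighbours were 334 bp apart and the closest NKX2.1 neighbours 247 bp, and 24 neighbouring NKX2.1 pairs overlapped each other while no GLIS3 pair did. GLIS3 midpoints around GLIS3 were densest at 500 bp to 1 kb (0.129 per kb, 4.02 times the far level) and NKX2.1 midpoints around NKX2.1 at 300 to 500 bp (0.0935 per kb, 4.16 times). A caller keeps a minimum distance between its peaks, and its part in these short gaps was not tested. All 3 profiles, GLIS3 with itself, NKX2.1 with itself and NKX2.1 with GLIS3, were lower at 2 to 5 kb than at 5 to 10 kb: 1.49 and 1.82 times, 1.2 and 1.51 times, and 1.33 and 1.48 times their far levels. At 5 to 10 kb the excess of GLIS3 around GLIS3 was larger than that of NKX2.1 around NKX2.1.

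**Figure D2:**
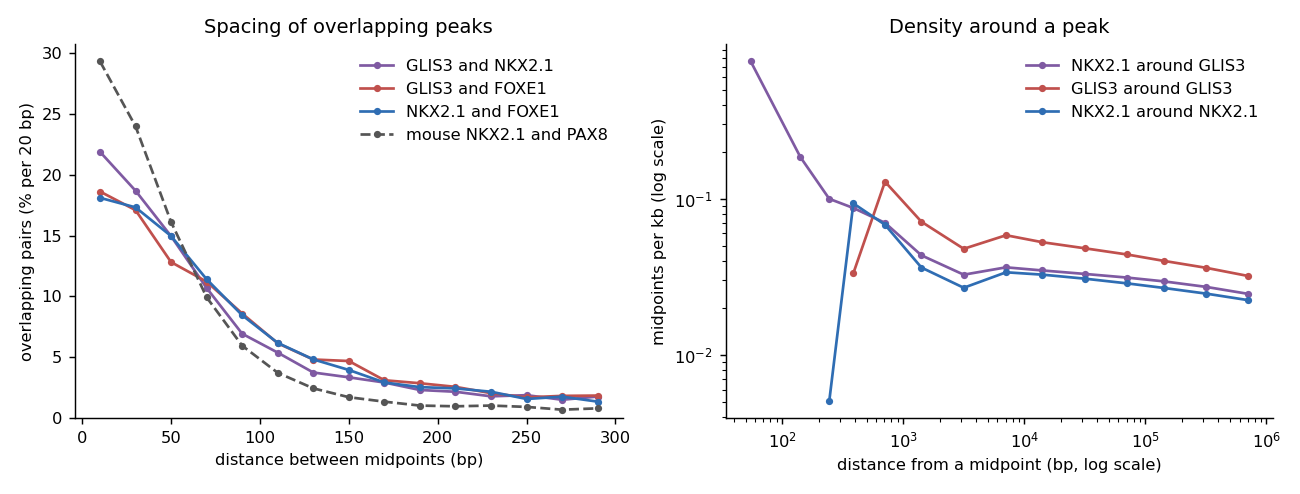
Left, distance between midpoints (bp) of overlapping, mutually nearest peaks as percent of pairs per 20 bp, for 3 pairs of TFs in PCCl3 cells and, dashed, for NKX2.1 and PAX8 in mouse thyroid. Right, midpoints per kb of sequence by distance from a peak's midpoint, both axes on a log scale, with distances at which there was no pair left out. The NKX2.1 density around GLIS3 is highest within 100 bp (0.764 per kb), and all 3 lines dip at 2 to 5 kb.

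GLIS3 peaks were more clustered than NKX2.1 peaks. Peaks of one list were joined into a run when neighbouring midpoints were at most 12500 bp apart, a distance in common use for joining enhancers into larger domains. Of the GLIS3 peaks 31.1% were alone by this rule, against 45.2% of the NKX2.1 peaks. Runs of 3 or more peaks held 47.1% of GLIS3 peaks (46.7 to 47.6%) and 27.2% of NKX2.1 peaks (26.8 to 27.6%), and runs of 5 or more held 23.8% and 6.74%. There were 206 GLIS3 runs of 10 or more peaks, holding 5.62% of the list, and 7 such NKX2.1 runs, holding 0.156%. The largest run had 31 GLIS3 peaks and the largest NKX2.1 run 11. The lists were of nearly equal length, and the median distance between neighbouring midpoints was 13825 bp for GLIS3 and 22645 bp for NKX2.1.

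The order of GLIS3 above NKX2.1 was the same with a shorter link of 5 kb (15.5% and 5.91% of peaks in runs of 3 or more) and a longer one of 25 kb (68.6% and 55.0%). It was also the same among single peaks alone, a choice made after the data were seen, with 39.6% of GLIS3 and 18.0% of NKX2.1 peaks in runs of 3 or more. In mouse thyroid, 40.2% of NKX2.1 and 43.0% of PAX8 peaks were in runs of 3 or more. NKX2.1 in mouse glands thus stood above NKX2.1 in PCCl3 cells by this measure, between lists that differed in species and genome. The methods state different calling thresholds for mouse thyroid and PCCl3 cells, and those behind the deposited lists could not be checked. Both deposited mouse lists were longer than the peak sets the study reports. FOXE1, with a list about 5 times shorter, had 75.1% of its peaks alone.

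Run size and sharing went in opposite directions for the TFs. GLIS3 peaks that were alone overlapped NKX2.1 in 22.5% of cases (21.8 to 23.2%), those in runs of 3 to 4 in 20.2%, those in runs of 5 to 9 in 19.5% and those in runs of 10 or more in 15.5% (14.2 to 17.0%). NKX2.1 peaks that were alone overlapped GLIS3 in 16.7% (16.2 to 17.2%), those in runs of 3 to 4 in 24.5%, those in runs of 5 to 9 in 28.4% (26.9 to 30.03%) and those in runs of 10 or more in 33.8%. That last share rests on 25 of 74 peaks and spans 24.0 to 45.1%. Large GLIS3 runs thus held many GLIS3 peaks without NKX2.1, whereas NKX2.1 peaks in company of each other more often had GLIS3.

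When both lists were joined by the same distance there were 38287 runs, 18804 of them a single peak. Of the 19483 runs of 2 or more peaks, 13931 held both TFs, and of the 11301 runs of 3 or more, 9818 held both, 773 held GLIS3 only and 710 NKX2.1 only. Among the 4719 runs of 5 or more peaks, GLIS3 made up a median of 60% of the peaks (quartiles 41.7 and 71.4%), against 49.3% of all peaks of both lists. At least 80% of the peaks were GLIS3 in 846 of these runs and NKX2.1 in 302, and the other 3571 lay between.

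The 5 runs with most peaks were all richer in GLIS3. A run at chr3:5500189-5687707 held 34 GLIS3 and 11 NKX2.1 peaks over 187.5 kb, with 6 GLIS3 peaks that overlapped NKX2.1 and 4 FOXE1 peaks. Its GLIS3 midpoints were a median of 3.41 kb apart, with a longest gap of 16.9 kb, and its NKX2.1 midpoints a median of 11.5 kb apart, with a longest gap of 71.7 kb. NKX2.1 peaks were thus missing from a long stretch in the later part of this run, in which GLIS3 peaks went on.

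The other 4 large runs also held more GLIS3 than NKX2.1. The run at chr19:53818360-53969503 held 31 GLIS3, 12 NKX2.1 and 3 FOXE1 peaks, and that at chr13:52544807-52691602 held 27, 13 and 5. On chromosome 5, a run at 159080957-159247220 held 29 GLIS3, 10 NKX2.1 and 5 FOXE1 peaks, and a run at 139101578-139260735 held 32, 6 and 3, with 1 GLIS3 peak overlapping NKX2.1. In each of the 5 runs FOXE1 was present, with 3 to 5 peaks. Over the whole list 4051 of 46004 GLIS3 peaks overlapped FOXE1. The share of all runs with FOXE1 was not computed, so this count does not set the 5 runs apart.

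Runs of only 1 TF were picked from the same joined runs, so they could not hold more peaks than the fullest run above. The fullest GLIS3 runs without any NKX2.1 peak held 13 peaks each, at chr10:109417136-109477281 (3 FOXE1 peaks) and chr20:5618129-5679096 (2 FOXE1 peaks). Runs of 11 GLIS3 peaks lay at chr1:83931889-84008863, chr12:44132216-44176453 and chr2:187117698-187168909, with 1, 0 and 0 FOXE1 peaks. The fullest NKX2.1 run without GLIS3 held 9 peaks at chr10:39605067-39639228 over 34.2 kb, a median of 3.46 kb apart and without FOXE1. Runs of 7 NKX2.1 peaks lay at chr14:18317842-18360570, which had 1 FOXE1 peak, and at chr15:749828-779614, chr15:1362507-1400502 and chr16:2172834-2198731, which had none.

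**Figure D3:**
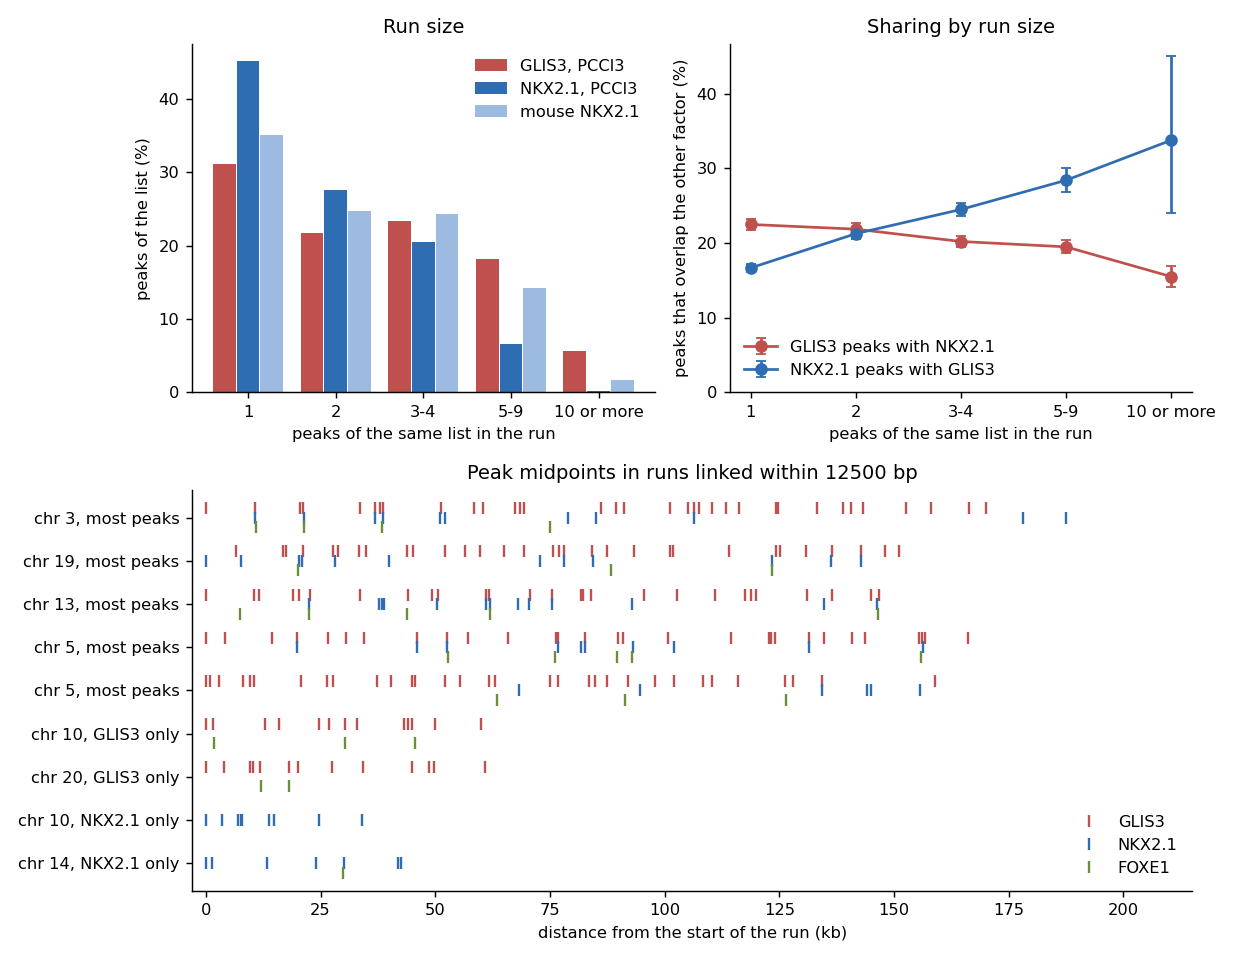
Top left, percent of each list's peaks by the number of same-list peaks in their run, with NKX2.1 of mouse thyroid beside the PCCl3 lists. Top right, percent of peaks that overlapped the other TF by run size, with 95% Wilson intervals as error bars. Bottom, midpoints of GLIS3, NKX2.1 and FOXE1 peaks along the 5 runs with most peaks and the 2 fullest runs of each single TF, in kb from the run's start. Alone peaks make up 45.2% of NKX2.1 and 31.1% of GLIS3, and sharing falls with run size for GLIS3 and rises for NKX2.1.

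At the finest scale, the 10 widest collapsed regions with both TFs lay on 7 chromosomes and measured 902 to 1059 bp. The widest was chr12:10338353-10339411, with 2 GLIS3 and 2 NKX2.1 peaks in 1059 bp. The next, chr5:124836206-124837261, had 2 of each in 1056 bp and overlapped FOXE1, and chr10:5450464-5451455 had 1 GLIS3 and 2 NKX2.1 peaks in 992 bp and overlapped FOXE1 too. FOXE1 overlapped 6 of the 10, and 21.3% of all shared GLIS3 peaks, which are 300 bp wide. A wider region has more room for a FOXE1 peak, and the part of width in this count was not tested. The median region with both TFs was 354.5 bp wide.

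The TFs were spread differently over the chromosomes. GLIS3 ranged from 3.49 peaks per Mb on X to 34.6 on chromosome 10, and NKX2.1 from 6.13 on X to 24.6 on chromosome 10, with chromosome length taken up to the last peak listed. Without X the highest density was 3.33 times the lowest for GLIS3 and 1.90 times for NKX2.1. The GLIS3 list held the larger share on 6 of 21 chromosomes (28.6%) and the NKX2.1 list on 7 (33.3%), counting only chromosomes on which the 95% intervals of the shares did not overlap.

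GLIS3 was relatively richer on chromosomes 5, 7, 10, 12, 19 and 20. Chromosome 12 held 1676 GLIS3 peaks and 1076 NKX2.1 peaks, so its share of the GLIS3 list was 1.60 times that of the NKX2.1 list (1.49 to 1.73). The ratio was 1.45 on chromosome 10 (1.38 to 1.52), with 3891 and 2765 peaks, 1.39 on chromosome 19 and 1.27 on chromosome 20. It was closer to 1 on chromosomes 7 (1.13) and 5 (1.08).

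NKX2.1 was relatively richer on X, with 980 peaks against 558 for GLIS3 and a ratio of 0.587 (0.528 to 0.651), and on chromosome 2, with 4089 peaks against 2766 and a ratio of 0.697 (0.664 to 0.731). The ratio was 0.799 on chromosome 18, 0.823 on 17, 0.848 on 15, 0.880 on 4 and 0.914 on 9. On chromosomes 1, 6, 11 and 14 the interval of the ratio left out 1 but the intervals of the shares overlapped.

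All lists were thin on X. Peaks per Mb on X were 0.2004 of the level on the numbered chromosomes for GLIS3, 0.347 for NKX2.1 and 0.106 for FOXE1, and in mouse thyroid 0.251 for NKX2.1 and 0.230 for PAX8. The copy number of X in these cells and the part of reads that align there were not tested. Against the same NKX2.1 shares, the FOXE1 share was 1.68 times as large on chromosome 10 (1.55 to 1.81), 1.31 times on 19 (1.15 to 1.49), 1.25 times on 12 (1.09 to 1.43) and 1.10 times on 20 (0.949 to 1.28). It was 0.788 times as large on chromosome 2 (0.724 to 0.856) and 0.307 times on X (0.233 to 0.399). GLIS3 and FOXE1 had an input in common, whose part in these values was not tested.

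With each run counted once, the ratio was 1.44 on chromosome 12, 1.23 on 10, 0.819 on 2 and 0.703 on X, nearer to 1 than with all peaks and on the same side. Shared peaks were nearly all pairs of 1 peak with 1 peak, so a chromosome has almost the same number of them in both lists. How its 2 shares with the other TF compare thus follows from the ratio, but the level of each share does not. The share of GLIS3 peaks with NKX2.1 was lowest on chromosome 20 (16.6%) and 16.7% on chromosome 10, and highest on X (26.0%, 22.5 to 29.8%). The share of NKX2.1 peaks with GLIS3 was highest on chromosome 12 (26.95%, 24.4 to 29.7%) and lowest on X (15%, 12.9 to 17.4%).

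**Figure D4:**
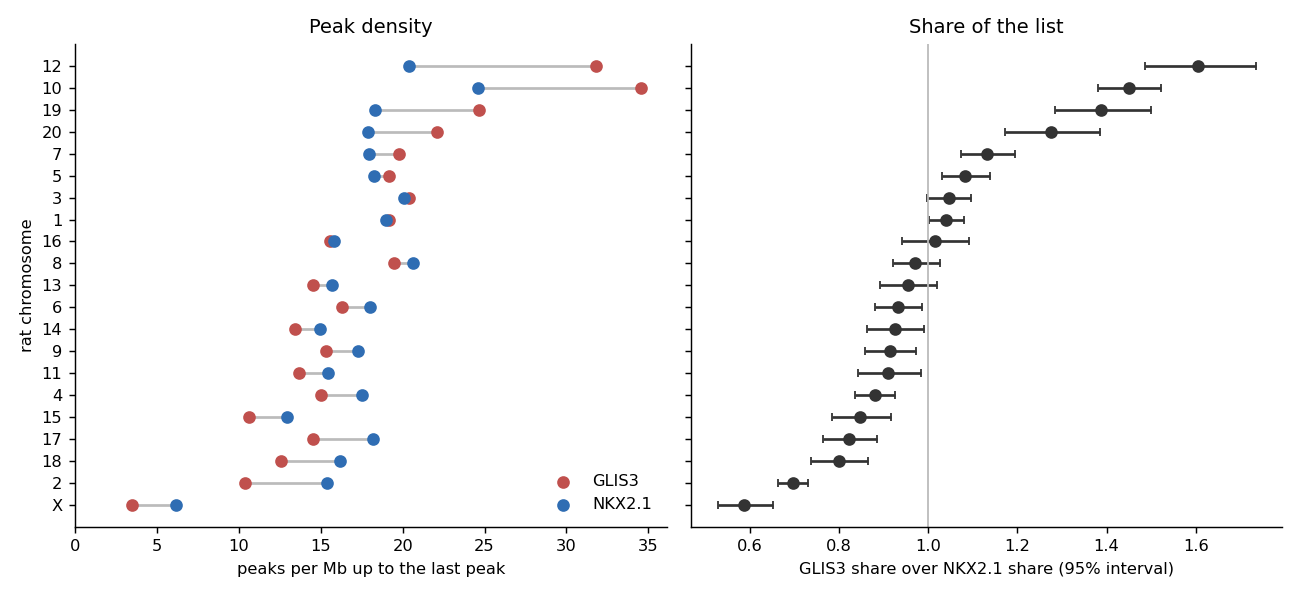
Left, GLIS3 and NKX2.1 peaks per Mb on each rat chromosome, with length taken up to the last peak listed. Right, the chromosome's share of the GLIS3 list over its share of the NKX2.1 list, with exact 95% binomial intervals. Chromosomes are ordered by this ratio, from 0.587 on X to 1.60 on chromosome 12.

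With all chromosomes pooled, position along them also went with the balance of the TFs. Each chromosome was divided, up to its last peak, into 10 equal parts in the order of its coordinates. The ratio of shares was lowest, 0.773 (0.736 to 0.811), in part 3, where 2841 GLIS3 and 3787 NKX2.1 peaks lay. It was 1.22 in part 9 and 1.29 (1.25 to 1.34) in part 10, where 6677 GLIS3 and 5324 NKX2.1 peaks lay. The first part stood at 1.04 (0.999 to 1.09), so in the pooled counts the GLIS3 excess was larger at the high end of the coordinates. The parts were not compared for single chromosomes, so this does not give a rule for each of them. The run with most peaks, chr3:5500189-5687707 with 34 GLIS3 and 11 NKX2.1 peaks, lay near the start of its chromosome.

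In bins of 1 Mb the lists rose and fell together, with a wider swing for GLIS3. Over 2787 bins, Pearson's r between the counts was 0.760 and Spearman's rho 0.876, given as a description without a p-value, since bins come from the same libraries and lie next to each other. The median bin held 9 GLIS3 and 16 NKX2.1 peaks, while the fullest held 122 and 65. The fullest 278 bins of each list held 37.3% of GLIS3 peaks and 23.9% of NKX2.1 peaks. There were 218 bins with 50 or more GLIS3 peaks and 20 with as many NKX2.1 peaks. At the other end 331 bins had NKX2.1 only, 48 GLIS3 only and 118 neither. The variance over bins was 22.9 times the mean for GLIS3 and 9.83 times for NKX2.1.

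Among 1611 bins with at least 20 peaks of both lists together, the GLIS3 share was at least 2 times the NKX2.1 share in 144 (8.94%), and the reverse held in 287 (17.8%). This order depended on which bins were read: with at least 40 peaks the percentages were 13.1 for GLIS3 and 6.82 for NKX2.1, and in bins of 500 kb with at least 20 peaks 15.8 and 10.8. GLIS3 led where only densely filled bins were read, and NKX2.1 where sparser bins were included. The GLIS3 bins were 12 of 41 compared bins on chromosome 12, 8 of 34 on 20, 10 of 46 on 19 and 20 of 94 on 10. On chromosome 1 they were 17 of 186, close to the 8.94% of all compared bins, and on 2, 15 and X there were none. The NKX2.1 bins were 38 of 134 on chromosome 2, 17 of 61 on 17 and 7 of 26 on X. On chromosome 1 they were 28 of 186, below the 17.8% of all compared bins, and on 12 and 19 there was 1 each.

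The bins farthest apart were these. At 134000001-135000000 on chromosome 6 there were 38 GLIS3 and 4 NKX2.1 peaks, a ratio of shares of 9.79 (3.52 to 37.7), with 7 FOXE1 peaks. Next were 20 against 3 at 131000001-132000000 on chromosome 6, 44 against 7 at 115000001-116000000 on chromosome 7, 38 against 7 at 149000001-150000000 on chromosome 5 and 38 against 8 at 215000001-216000000 on chromosome 1. Each of these 5 bins held FOXE1 peaks, 1 to 7 of them. Of all 2787 bins 947 held none, and bins fuller in both TFs held more FOXE1 peaks. The share with FOXE1 among the 1611 bins compared was not computed, so these counts do not set the 5 bins apart.

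In the other direction, 152000001-153000000 on chromosome 1 held 0 GLIS3 and 20 NKX2.1 peaks, an NKX2.1 share at least 6.47-fold higher against a floor of 3 GLIS3 peaks. The exact 95% interval of the ratio, which also counts the error of the 20 peaks, begins at 4.79-fold. There were 1 against 19 at 24000001-25000000 on chromosome 16, 3 against 37 at 83000001-84000000 on chromosome 8, 2 against 18 at 50000001-51000000 on chromosome 15 and 3 against 24 at 17000001-18000000 on chromosome 20. FOXE1 had 0 to 2 peaks in each of these bins. Of all 2787 bins, 947 held no FOXE1 peak and 634 held 1 to 2, but these include bins with too few peaks to be compared. The share among the 1611 bins compared was not computed, so these FOXE1 counts do not set the named bins apart.

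Fullness alone was not the same thing in the lists. The bin with most GLIS3 peaks, 12000001-13000000 on chromosome 7, held 122 GLIS3, 26 NKX2.1 and 22 FOXE1 peaks, and its neighbour at 11000001-12000000 held 115, 44 and 22. The bin with most NKX2.1 peaks, 43000001-44000000 on chromosome 17, held 65 NKX2.1, 21 GLIS3 and 3 FOXE1 peaks. No bin was among the 5 fullest of both lists.

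FOXE1 counts ordered the balance of the TFs over all bins. In 947 bins without FOXE1 the medians were 1 GLIS3 and 3 NKX2.1 peaks and the ratio of shares was 0.441 (0.418 to 0.465). With 1 to 2 FOXE1 peaks the medians were 7 and 14 (ratio 0.656), with 3 to 5 they were 17 and 23 (0.872), and with 6 to 10 they were 31 and 29 (1.196). In the 211 bins with over 10 FOXE1 peaks the medians were 55 GLIS3 and 36 NKX2.1 peaks and the ratio was 1.61 (1.56 to 1.65). Both TFs were more frequent where FOXE1 was, and GLIS3 changed by more over the same bins. The input shared by GLIS3 and FOXE1 and the number of peaks per bin moved with this order, and their part was not tested.

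**Figure D5:**
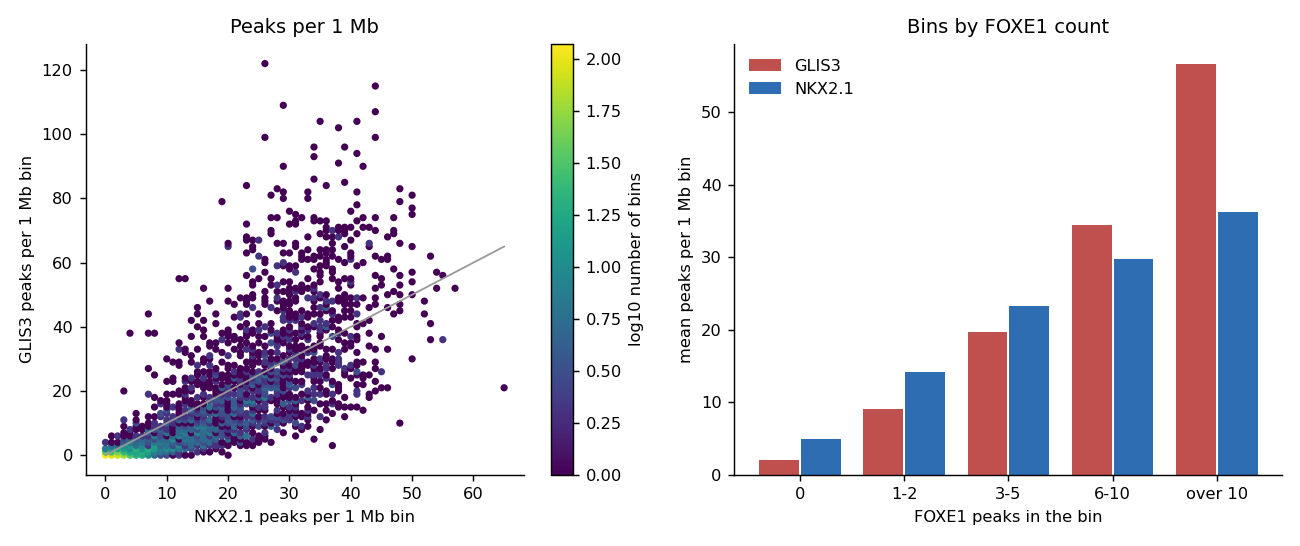
Left, GLIS3 against NKX2.1 peaks per 1 Mb bin, each point coloured by the log10 number of bins at that place, with a line of equal counts. Right, mean GLIS3 and NKX2.1 peaks per bin by the number of FOXE1 peaks in the bin. GLIS3 reaches 122 peaks and NKX2.1 65, and the GLIS3 mean passes the NKX2.1 mean from 6 FOXE1 peaks upward.

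The widest stretches without a peak of either TF were chr15:93667860-98467985 (4.80 Mb), chrX:87547839-91648225 (4.1 Mb) and chrX:144663606-148743975 (4.08 Mb). FOXE1 had no peak in any of the 3, so they were empty in all PCCl3 lists. Gaps in the assembly and reads without a unique place there were not tested.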

How the data were processed

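Peak lists of 2 ChIP-seq libraries from PCCl3 cells, GLIS3 and NKX2.1, were compared. FOXE1 of the same cells and NKX2.1 and PAX8 of mouse thyroid (mm10) were used beside them. The deposited mouse lists were used whole, and both were longer than the peak sets the study reports. Per the study's methods, the authors trimmed reads with Cutadapt 1.12, aligned unique hits to rn6 with Bowtie 1.2, removed duplicates with Picard 1.110, called peaks per library against its input with HOMER 4.10.3 and set them to 300 bp. Bedtools 2.24.0 is named in the submitters' processing notes. The deposited lists give positions only, so no read depth, peak score or stricter threshold was at hand, and a deeper or cleaner library can give a longer list.

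Midpoints and overlaps were computed with Python 3.11.15, numpy 2.4.6, pandas 2.3.3 and scipy 1.17.1, and figures with matplotlib 3.10.9. The functions were tested on simulated peaks with known answers. Peaks were shared at 1 bp of overlap or more. Collapsed regions joined peaks within 50 bp, and runs joined midpoints within 12500 bp. A 1 Mb bin was compared with at least 20 peaks of both lists and called at a 2-fold ratio of shares. Shares have Wilson 95% intervals and ratios exact binomial ones. No test between TFs was run, since each had 1 library. Coordinates count from 1. Peaks on Y and unplaced sequences (30 GLIS3, 41 NKX2.1) entered shares and runs but not chromosomes and bins.

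The TFs compared, the measures and the regions named were chosen with earlier results of these data known. Named regions were the 10 widest collapsed regions with both TFs, the 5 runs with most peaks, the 5 fullest runs of each TF alone, the 5 bins at each end of the ratio, all chromosomes with separate intervals and the 3 widest empty stretches. The fullest bins of each list were named after their values were seen. Histone mark lists were not used, and no gene or sequence is given, since no rn6 genome or annotation was used here.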

Additional observations from a re-analysis of the deposited data

How the results depend on the processing

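Shares of peaks in common and in runs depended on the distances chosen. Of 50 alternative values 16 stayed within the interval of the reported value or within 1.5 times a count, and 34 moved. Shared GLIS3 and NKX2.1 peaks were 17.6% and 17.1% with 150 bp of overlap, 10.4% and 10.1% with midpoints within 50 bp, 28.2% and 27.4% within 1 kb, and, chosen after seeing the data, 18.0% and 17.4% without peaks that overlapped FOXE1. GLIS3 and NKX2.1 peaks in runs of 3 or more were 15.5% and 5.91% with a 5 kb link, 68.6% and 55.0% with 25 kb, and, also chosen after seeing the data, 39.6% and 18.0% without shared peaks. The ratio of GLIS3 to NKX2.1 shares on chromosomes 10, 12, 2 and X was 1.59, 1.83, 0.637 and 0.514 without shared peaks, which are nearly equal in number in both lists so that leaving them out moves a ratio away from 1, and 1.23, 1.44, 0.819 and 0.703 with runs counted once. Bins with a 2-fold higher GLIS3 or NKX2.1 share were 15.8% and 10.8% at 500 kb, 6.14% and 22.1% at 2 Mb, and 13.1% and 6.82% with at least 40 peaks, so which TF led depended on the bins read. FOXE1 overlap of shared GLIS3, single GLIS3 and single NKX2.1 peaks was 25.5%, 8.71% and 6.60% within 1 kb and 20.4%, 5.01% and 3.50% for peaks alone in their list. The causes were not tested.

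No paired analysis was possible because each TF had 1 library. A stricter peak threshold and windows around genes were not run, since the lists hold no score and no rn6 annotation was used here. Peak numbers depend on a read depth that is unknown, and antibody and input differed with the TF.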
